A study of Bos taurus with 12 samples.

Results

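The miRNAs miR-21, miR-146a, miR-146b and miR-155 were followed in the blood of heat stressed and heat resistant dairy cows. They were picked by name, whatever prefix for a species, arm or isoform the name carried, and 9 of the 1981 distinct names in the deposited small RNA table met that rule. Of these 9 rows, 3 belonged to miR-21, 3 to miR-146a, 2 to miR-146b and 1 to miR-155. The study sequenced 12 small RNA libraries from Chinese Holstein cows, 6 of them from cows classed as heat stressed and 6 from cows classed as heat resistant. The classes rest on rectal temperature and the drop in milk yield, combined by principal component analysis, so they are phenotypes of cows and not treatments, and the libraries used here hold no other group of cows. The labels give neither age nor parity and call the sample only blood, without a fraction of it. Each library was taken as 1 cow, which the labels do not state.

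These miRNAs are among those most often studied in inflammation. In human and mouse cells their transcription rises with inflammatory signalling, NF-kB and AP-1 among its routes, and each then represses other genes of the response. miR-146a and miR-146b come from different genes but share a seed, the stretch near the 5' end that pairs with targets, and target the adaptors IRAK1 and TRAF6 and so damp toll-like receptor signalling. miR-155 represses SOCS1 and the phosphatase SHIP1 and promotes activation of macrophages and lymphocytes. miR-21 represses PDCD4 and is abundant in many cell types. In the RefSeq gene table for cattle the nearest protein-coding gene to MIR21 is VMP1, and none of the 4 miRNA genes overlaps another gene. In each precursor 1 arm is the main product (here the 5p arm) and the other (3p) is mostly degraded.

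Per library, 3992968 to 9813798 counts were assigned to the 1981 names. Markers of red cells, myeloid cells, lymphocytes and platelets were all detected. Red cell miRNAs (miR-451, miR-144 and miR-486) held 2.57% to 8.0% of counts in heat stressed and 1.88% to 9.62% in heat resistant libraries. miR-223 and miR-142, listed together as myeloid, held 3.04% to 4.72% and 1.84% to 3.85%, in heat stressed and heat resistant libraries. miR-142 is not limited to myeloid cells, and miR-142-5p made up more of this share than miR-223. Log2 fold changes were 0.84 ± 0.21 for miR-142-5p and 0.16 ± 0.17 for miR-223 (SE; edgeR adjusted p = 0.0692 and 0.607). The share is thus no measure of myeloid cells alone. For the lymphocyte miRNAs miR-150 and miR-342 the ranges were 0.558% to 1.20% in heat stressed and 0.392% to 0.561% in heat resistant libraries. Liver miR-122 held 0.945% to 4.21% in heat stressed libraries. It held 13.7% and 15.7% in heat resistant libraries 1 and 2, and 1.87% to 2.38% in the other 4 of that group. Platelet miRNAs (miR-126 and miR-197) held 0.282% to 0.928% in heat stressed and 0.400% to 0.717% in heat resistant libraries, and those of skeletal muscle at most 0.0795% and 0.0738%. Epithelial miRNAs held 0.369% to 0.510% in heat stressed and 0.330% to 0.580% in heat resistant libraries, and every marker had counts in some library. A difference in blood cell makeup and a difference in miRNA per cell cannot be told apart in these samples. With miR-451 over miR-23a (log2) as a covariate, meant to follow the red cell share, no row of the 4 miRNAs was called. Some log2 fold changes given below without it moved. That of miR-21-5p was 0.232 ± 0.12, of miR-155 0.307 ± 0.18 and of miR-146a 0.095 ± 0.23 with the covariate (SE; edgeR adjusted p = 0.634, 0.713 and 0.932). This covariate may not follow red cells alone: miR-23a itself had a lower mean in heat stressed cows, a difference that was not called. Log2 fold changes were -0.75 ± 0.28 for miR-23a and 0.37 ± 0.39 for miR-451 (SE; edgeR unadjusted p = 0.0154 and 0.362, adjusted 0.155 and 0.624). Heat stressed library 6, with 2.57% red cell miRNAs, had a higher covariate (0.27) than heat stressed library 2 (-0.47), with 4.71%. That share also counts miR-144 and miR-486, which the covariate leaves out. What the shifts reflect was not tested, nor was the part of each cell type.

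Levels are given as CPM, counts scaled to a common library total after TMM adjustment, a scaling that sets the bulk of features equal between libraries. A read spans a whole mature miRNA, so levels of different miRNAs were compared without a length correction, although differences in ligation efficiency between sequences remain in them. miR-21-5p was the most abundant feature in 10 of 12 libraries and the second in heat resistant libraries 1 and 2, the pair rich in miR-122. Its level was 97290.0, 111042, 90163, 84507, 100182.9 and 122868 CPM in heat stressed libraries 1 to 6. It was 96582, 82321, 108761, 77116, 115153 and 100424 CPM in heat resistant libraries 1 to 6. The groups overlapped over nearly their whole ranges, with library 4 the lowest in each. Its log2 fold change, heat stressed over heat resistant, was 0.06 ± 0.12 (SE; edgeR adjusted p = 0.829).

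miR-155 stood near 500 CPM, at rank 98 to 133 among the names of a library. Its level was 499.6, 525, 527, 362, 495 and 780.3 CPM in heat stressed libraries 1 to 6. It was 595, 423, 633, 352, 526 and 567 CPM in heat resistant libraries 1 to 6. Heat stressed library 6 was the highest of all 12, and library 4 was again the lowest of each group. The means, 532 ± 136 CPM in heat stressed cows and 516 ± 108 CPM in heat resistant cows (SD, n = 6 each), differed by less than the spread within either group. The log2 fold change was 0.04 ± 0.19 (SE; edgeR adjusted p = 0.936), and its sign depended on single libraries: it was -0.15 without heat stressed library 6. No second arm of miR-155 and no isoform row was among the names.

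miR-146a had almost the same level as miR-155. It stood at 471, 307, 432, 575, 749.6 and 623 CPM in heat stressed libraries 1 to 6. It stood at 539.6, 425, 361, 512, 351 and 540.5 CPM in heat resistant libraries 1 to 6. The 3 highest libraries, 4, 5 and 6, were heat stressed, but so was the lowest, library 2. The means were 526 ± 156 CPM in heat stressed cows and 455 ± 87.4 CPM in heat resistant cows (SD, n = 6 each), with a log2 fold change of 0.21 ± 0.20 (SE; edgeR adjusted p = 0.585). It was 0.088 without heat stressed library 6, 0.103 without heat stressed library 5 and 0.341 without heat stressed library 2.

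miR-146b, the less abundant of the pair, stood at 121, 92.6, 71.5, 67.6, 82.0 and 85.3 CPM in heat stressed libraries 1 to 6. It stood at 226, 76.6, 59.8, 112, 78.6 and 221 CPM in heat resistant libraries 1 to 6. Heat resistant libraries 1 and 6 lay far above the other 10, and the remaining 4 of that group, at 59.8 to 112 CPM, overlapped the heat stressed libraries, at 67.6 to 121 CPM. The means were 86.6 ± 19.1 CPM in heat stressed cows and 129 ± 75.3 CPM in heat resistant cows (SD, n = 6 each). The log2 fold change was -0.58 ± 0.31 (SE; edgeR adjusted p = 0.308). Leaving out heat resistant library 1 gave -0.343 and leaving out heat resistant library 6 gave -0.399.

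**Figure D1:**
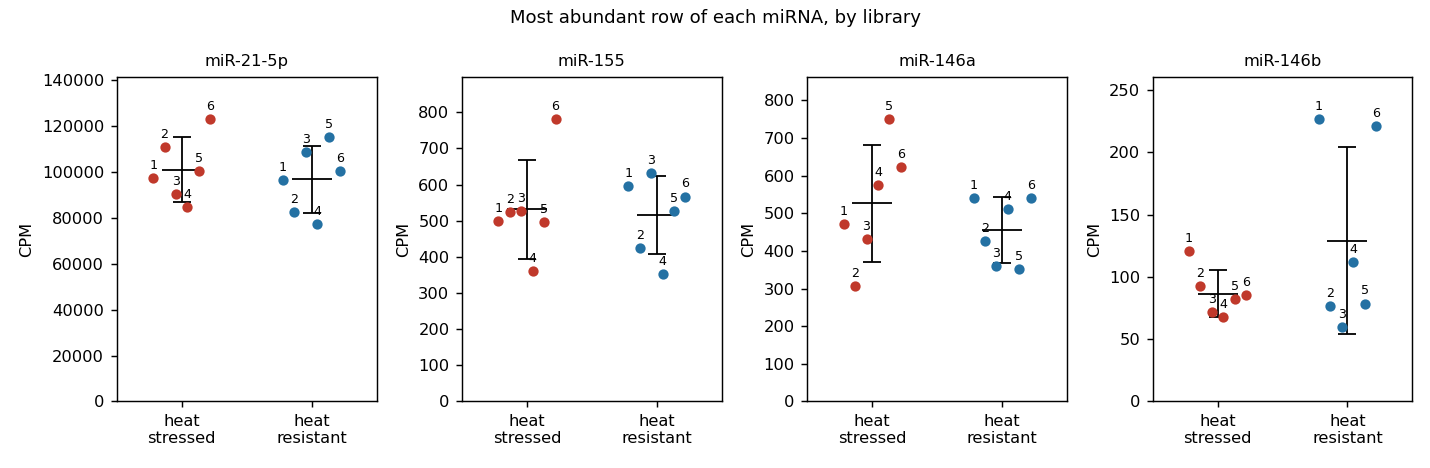
Level in CPM (linear axes from 0) of the most abundant row of miR-21, miR-155, miR-146a and miR-146b in each library, with points numbered by library, horizontal bars at the mean and whiskers of 1 SD (n = 6 each). The groups overlap in all 4 panels, and heat resistant libraries 1 and 6, at 226 and 221 CPM, stand above the rest for miR-146b.

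Reads of miR-146a and miR-146b were not fully separable. Both had values that were not whole in the same 6 of 12 libraries, and their sum was whole in all 12, as when reads that match both are divided between them. The sum does not depend on that division. It was 613 ± 152 CPM in heat stressed cows and 584 ± 157 CPM in heat resistant cows (SD, n = 6 each), and ranged from 400.0 to 832 CPM and from 421 to 766 CPM in that order.

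The order of the group means was the same in both groups: miR-21-5p far above the rest, then miR-155 with miR-146a, then miR-21-3p with miR-146b, then the minor forms. miR-21-5p exceeded miR-155 by 157-fold to 233-fold and miR-146a by 134-fold to 361-fold in single libraries. miR-155 and miR-146a did not keep an order: miR-155 was the higher in 4 of 6 heat stressed and 4 of 6 heat resistant libraries, with a median ratio of 1.08. miR-146a exceeded miR-21-3p in all 12 libraries. miR-21-3p exceeded miR-146b in 6 of 6 heat stressed libraries and 4 of 6 heat resistant ones, the exceptions being libraries 1 and 6. miR-146b exceeded the L+2 form of miR-21-5p, a minor row, in all libraries but heat resistant library 3.

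miR-21-3p, the minor arm of miR-21, had the smallest p of the 7 member rows that passed the filter on low counts. Its level was 135, 121, 135, 161, 137 and 120 CPM in heat stressed libraries 1 to 6. It was 186, 161, 127, 167, 169 and 203 CPM in heat resistant libraries 1 to 6. All heat resistant libraries but number 3, which lay within the heat stressed range, were above the highest heat stressed one, library 4, although by as little as 161.1 CPM in heat resistant library 2 against its 160.5 CPM. The means were 135 ± 14.6 CPM in heat stressed cows and 169 ± 25.6 CPM in heat resistant cows (SD, n = 6 each). The log2 fold change was -0.33 ± 0.14 (SE), with an unadjusted p of 0.0335 that did not pass over all features (edgeR adjusted p = 0.213). An unadjusted p under 0.05 was reached by 19.3% of all features tested, so a single member with such a p is within that background.

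A second row named for miR-21-5p was listed under an opossum name with the mark L+2, which in the notation of the counting program stands for 2 more bases at the 5' end than in the named entry. Its sequence was not used here. It had 40.9 to 71.0 CPM in the heat stressed libraries and 49.3 to 74.8 CPM in the heat resistant ones. Its log2 fold change was -0.23 ± 0.17 (SE; edgeR adjusted p = 0.451). miR-146b-3p had 2.83 to 7.32 CPM in heat stressed libraries. In heat resistant libraries it had 29.0 CPM in library 6, 0 in library 3 and 2.27 to 7.56 CPM in the other 4 (log2 fold change -0.69 ± 0.68, SE; edgeR adjusted p = 0.591). That value rested on library 6 of the heat resistant group, without which the log2 fold change was 0.26.

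2 rows did not pass the filter. miR-146a-3p was listed at 5 counts in heat stressed library 3, at 7 and 6 counts in heat resistant libraries 1 and 6, and at 0 in the other 9. A miR-146a-5p row under an armadillo name was listed at 5 counts in heat stressed library 1, at 298.5 and 40.0 counts in heat resistant libraries 1 and 2, and at 0 elsewhere. Counts under 5 hardly occur in the table (99.8% of nonzero entries in rows of whole values are at least 5), and a 0 may therefore stand for a few reads.

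**Figure D2:**
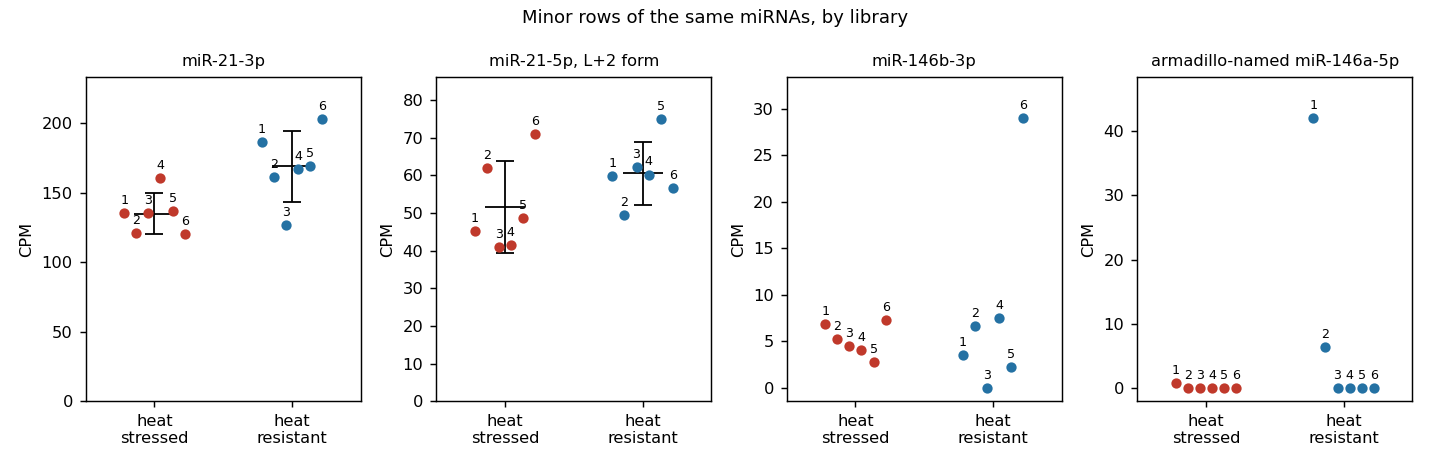
Level in CPM (linear axes) of 4 minor rows in each library, with points numbered by library; horizontal bars and whiskers give mean and SD (n = 6 each) in the panels of miR-21-3p and the L+2 form, and the panels with values of 0 have points alone. For miR-21-3p 5 of the 6 heat resistant libraries lie above 160.5 CPM, the highest heat stressed value, and the armadillo-named row is almost all in heat resistant library 1.

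edgeR called 0 of the 7 member rows tested, of which 3 had positive and 4 negative fold changes and 1 an unadjusted p under 0.05. Over all 756 features it called 0%, with 19.3% of them at an unadjusted p under 0.05. Groups did not overlap in 1.06% of features, and no member was among them. The median log2 fold change was -0.23 over the 7 rows and -0.0019 over all features. The count over all features depends on the method and on single libraries: DESeq2 called 54 features and limma-voom 0, and edgeR called 97 with heat resistant library 4 left out and 29 with heat stressed library 2 left out. No member was called in any of these fits.

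A list of other miRNAs, written as ones linked to NF-kB or toll-like receptor signalling, was read from the same fit. Whether that signalling raises each of them was not tested here, so their directions are no readout of the pathway. Of 43 rows of 18 such miRNAs 33 were tested, 15 with positive and 18 with negative fold changes, and 0 were called. The median log2 fold change was -0.16, against -0.0019 over all features. Over all 756 features 19.3% had an unadjusted p under 0.05, and of the 33 rows 7 had. The 6 most abundant were miR-221, which represses the kinase receptor KIT, myeloid miR-223, miR-222, miR-10a, miR-181b and miR-223-5p. Their log2 fold changes were -0.16 ± 0.15 for miR-221, 0.16 ± 0.17 for miR-223 and -0.07 ± 0.17 for miR-222 (SE). They were -0.30 ± 0.15 for miR-10a, -0.29 ± 0.17 for miR-181b and -0.32 ± 0.19 for miR-223-5p (SE). The smallest adjusted p of the 6 was 0.273 (edgeR). Less abundant rows had the smallest p of the list, in both directions. Log2 fold changes were -1.26 ± 0.30 for miR-212-3p, 0.92 ± 0.28 for miR-31 and 0.47 ± 0.14 for miR-29b (SE). Their edgeR adjusted p was 0.0686, 0.0973 and 0.0973. The arms of miR-223 had fold changes of opposite sign, as had the arms of miR-21, and none of these passed the threshold. That of miR-21-5p turned to -0.053 without heat stressed library 6, and the arms of miR-146b and of miR-31 shared a sign. No common pattern of the arms is thus shown.

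**Figure D3:**
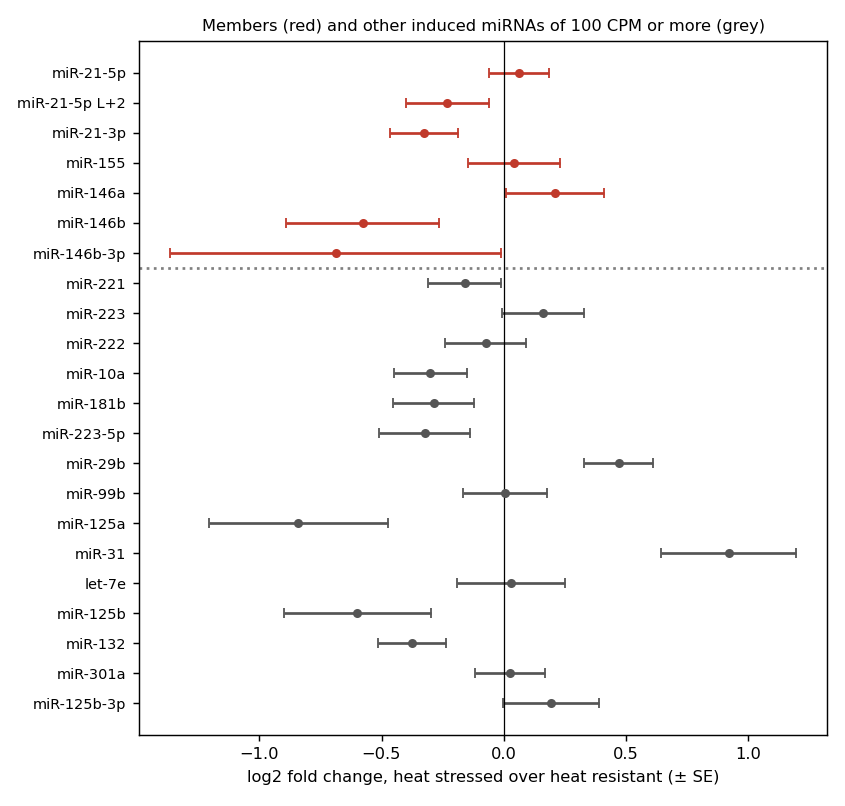
Log2 fold change of heat stressed over heat resistant cows with its SE for the 7 member rows tested (red, above the dotted line) and the rows of the other listed miRNAs with a mean of 100 CPM or more (grey). Members lie between -0.69 and 0.21, and none passed the threshold.

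Ratios within a library do not depend on how libraries are scaled, and 4 were compared by exact permutation. With 2 counts added to each value, ratios over counts near 0 still depend on library depth. The ratio of miR-21-5p to miR-21-3p was 719, 918, 667, 526, 729.9 and 1017 in heat stressed libraries 1 to 6. It was 518, 509.9, 854, 461, 679.6 and 495 in heat resistant libraries 1 to 6. All 6 heat stressed libraries were above the heat resistant median of 514, while heat resistant libraries 3 and 5 lay within the heat stressed range. The mean log2 ratio was 9.54 ± 0.34 in heat stressed cows and 9.16 ± 0.34 in heat resistant cows (SD, n = 6 each), a difference of 0.38 (exact permutation p = 0.0844, 2-sided; adjusted over the 4 ratios 0.202). Without heat resistant library 3 that difference was 0.498 (exact permutation p = 0.0173), and without heat stressed library 4 it was 0.484 (exact permutation p = 0.0346), both p unadjusted. Without heat stressed library 6 it was 0.293 (exact permutation p = 0.165), and without heat resistant libraries 1 and 2 together 0.305 (exact permutation p = 0.248).

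The ratio of miR-146a to miR-146b was 3.89, 3.31, 6.03, 8.48, 9.11 and 7.28 in heat stressed libraries 1 to 6. It was 2.38, 5.53, 5.99, 4.55, 4.45 and 2.44 in heat resistant libraries 1 to 6. Heat stressed libraries 3 to 6 were above every heat resistant one, and libraries 1 and 2 were not. The mean log2 ratio was 2.57 ± 0.60 in heat stressed cows and 1.99 ± 0.58 in heat resistant cows (SD, n = 6 each; exact permutation p = 0.130, adjusted 0.202). Reads divided evenly between the pair would bring this ratio nearer to 1.

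The ratio of miR-146b to miR-146b-3p ranged from 11.2 to 26.4 in heat stressed and from 7.56 to 126 in heat resistant libraries, after 2 counts were added to each value. The highest, in heat resistant library 3, is a ratio over 0 counts whose value is set by the added counts. The difference in mean log2 ratio, heat stressed minus heat resistant, was -0.63 (exact permutation p = 0.387). It was -0.95 with 0.5 counts added, -0.29 with 10 added and -0.17 without that library. The ratio of miR-146a to its 3p arm has little meaning, with the 3p arm at 0 in 9 libraries. Its mean log2 value was 10.6 ± 0.73 in heat stressed cows and 9.84 ± 0.97 in heat resistant cows (SD, n = 6 each; exact permutation p = 0.152, adjusted 0.202).

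**Figure D4:**
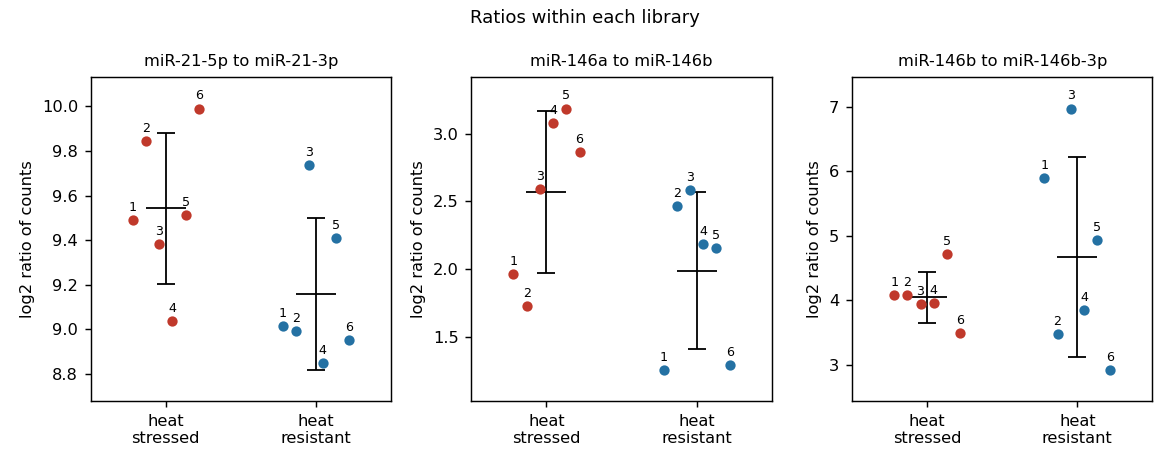
Log2 ratio of counts (2 added to each) within each library for miR-21-5p over miR-21-3p, miR-146a over miR-146b, and miR-146b over miR-146b-3p, with points numbered by library, bars at the mean and whiskers of 1 SD (n = 6 each). Groups overlap in each panel, and in the panel of miR-146b over miR-146b-3p the point of heat resistant library 3 is a ratio over 0 counts, set by the added counts.

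Across the 12 libraries miR-21-5p and miR-155 varied together. Pearson's r of their log2 CPM was 0.845 (permutation p = 0.00055; adjusted over the 6 pairs of members 0.0033). Spearman's rho was 0.685 (permutation p = 0.0167, adjusted 0.100), which did not pass. Pearson's r was 0.869 within the 6 heat stressed and 0.840 within the 6 heat resistant libraries. It was 0.680 without the 2 libraries farthest from the median of miR-21-5p, heat stressed library 6 and heat resistant library 4.

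Library 4 of each group, lowest in both miRNAs, had the largest share of red cell miRNAs of its group, 8.0% in heat stressed and 9.62% in heat resistant cows. Without both, r was 0.725 and rho 0.467 (n = 10). As a share of the plain library total, the 12 libraries gave an r of 0.851 and a rho of 0.797. Scaled to the total without the 3 most abundant features, they gave an r of 0.875 and a rho of 0.916. With that scaling and without library 4 of each group, r was 0.788 and rho 0.855. The part of the red cell share in this relation was not tested further.

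**Figure D5:**
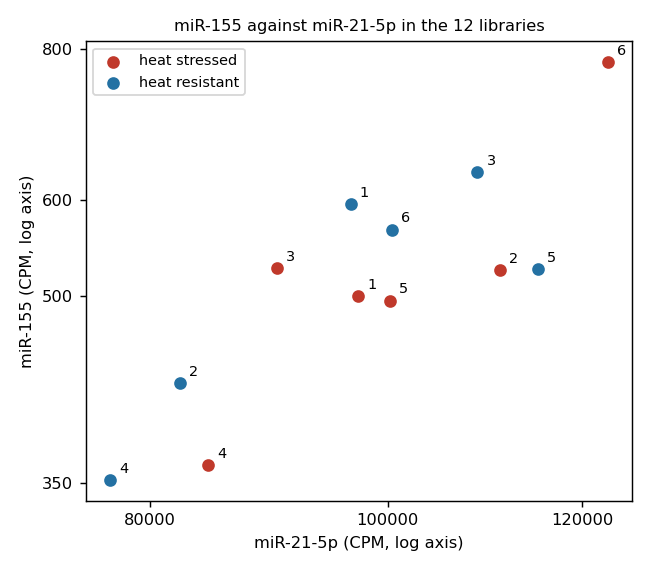
miR-155 against miR-21-5p in CPM (both axes logarithmic), 1 point per library, numbered within its group. The 3 libraries lowest in one miRNA were also the 3 lowest in the other, with library 4 of each group at the lower left and heat stressed library 6 at the upper right (Pearson's r = 0.845 on log2 values).

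The other 5 pairs gave no relation past the threshold. Pearson's r was -0.193 for miR-21-5p with miR-146a (permutation p = 0.544), -0.05 with miR-146b (permutation p = 0.885) and -0.03 for miR-146a with miR-155 (permutation p = 0.917). It was 0.144 for miR-146b with miR-155 (permutation p = 0.656) and 0.255 for miR-146a with miR-146b (permutation p = 0.422). Spearman's rho for the 5, in the same order, was -0.133, 0.0420, -0.0280, 0.0909 and 0.224, and the adjusted p of each was 0.917 for r and 0.939 for rho. Without the 2 libraries farthest on the first-named miRNA, r was -0.449, 0.0676, 0.0111, -0.207 and 0.449. For miR-146a with miR-146b it was -0.256 within heat stressed and 0.887 within heat resistant libraries, a contrast that was not tested, over 6 libraries each and with reads shared between the pair.

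Among all features with a mean of 100 CPM or more, those most like each member across the 12 libraries were found by Pearson's r of log2 CPM, as a description without a test. For miR-21-5p they were miR-155, miR-374a (r = 0.843) and miR-30e-3p (r = 0.821). Their rho with miR-21-5p was 0.685, 0.846 and 0.818 in that order, so the relation to miR-155 was not particular to that pair. For miR-155 they were miR-21-5p, miR-1271 (r = 0.774) and miR-26a (r = 0.755). For miR-146a they were miR-2285k (r = 0.745), let-7a-3p (r = 0.726) and a predicted candidate without a miRNA name (r = 0.713). For miR-146b they were miR-330 and the 3p product of miR-423 (r = 0.733 for both) and miR-30d (r = 0.700). Their rho with miR-146b was 0.622, 0.399 and 0.462 in that order. All share the library totals they are scaled to.

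The spread between libraries of a group differed among the members. The SD of log2 CPM within groups was 0.21 for miR-21-5p, 0.19 for miR-21-3p, 0.34 for miR-155, 0.38 for miR-146a and 0.62 for miR-146b. Of the 82 features within 2-fold of the level of miR-21-3p, 70 varied more. Within 2-fold of miR-21-5p there was 1 feature, which varied less (SD 0.15). Of the 88 features within 2-fold of miR-146b, 8 varied more, and its SD was 0.30 in heat stressed cows and 0.82 in heat resistant cows. Of the peers within 2-fold, 21 of 49 varied more than miR-155 and 16 of 48 more than miR-146a.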

How the data were processed

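Per the labels' protocols, RNA was extracted with Trizol, TruSeq small RNA libraries were sequenced on a HiSeq instrument, and ACGT101-miR removed adapter dimers, junk, common RNA families and repeats. The aligner, miRBase release and genome build were not given in the sources used here. Fewer libraries than the 12 used are named in the protocol text. The deposited raw columns are expected counts per miRNA row, of which 80.2% of values above 0 were whole (within 1e-06). The deposited normalized columns are a signal, 1 constant per library (0.692 to 1.70) times the raw values, and entered no test. Repeat rows were counted once. The members, the list of other miRNAs and the tests were chosen with earlier results of these data known. Mature sequences were not used here.

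Expected counts were rounded and fitted with edgeR 4.0.16 in R 4.3.3 (filterByExpr with minimum count 10, TMM, quasi-likelihood F test, robust) on all 756 features passing, with Benjamini-Hochberg adjustment at 0.05, 2-sided. SE is the log2 fold change over the root of F. Log2 CPM used a prior count of 2. Ratios used counts plus 2 and an exact permutation test over the libraries, whose smallest p is 0.00216. Correlations used 100000 resamples. The labels do not say that the libraries are from separate cows, so p-values measure the spread between these 12 libraries, which may in part be technical. Named were the most abundant row of each member's arms, the 6 most abundant rows of the list and its rows of smallest p. The 3 features most like each member were named as well. The other member rows are given because there are few. DESeq2 1.42.0, limma 3.58.1 with voom, other filters and scalings, a replicate block, a covariate (miR-451 over miR-23a, log2) and leaving out libraries were alternatives.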

Additional observations from a re-analysis of the deposited data

Results flagged for a closer look

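Of 28 groups of 6 values examined (9 member rows and 5 ratios in each class of cows), 4 held a library far from the rest, where chance gives about 1 in 20. That rate does not hold for 3 of the 4, in which 4 or 5 of the 6 libraries were at 0. miR-146b-3p was 29.0 CPM in heat resistant library 6, a library also high in miR-146b. The armadillo-named miR-146a row was 42.1 CPM in heat resistant library 1, and equalled 7.82% of the cattle miR-146a row there and 1.48% in heat resistant library 2, and it was 0.748 CPM in heat stressed library 1. Heat resistant library 1 also had the largest share of counts under names of other species, 2.10% against 1.54% to 1.91% in the other 11. miR-146a-3p was 0.495 CPM in heat stressed library 3, where every other library of the group had 0.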

How the results depend on the processing

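No member row was called under any of the 21 alternatives to the edgeR fit. The count over all features was 54 with DESeq2, 11 with no filter, 20 with the stricter filter, 13 with repeat rows summed, 8 with the replicate block, and 0 to 97 with 1 library left out (97 without heat resistant library 4, 29 without heat stressed library 2, 2 without heat resistant library 5). Adjusted p of single members ranged from 0.0642 (miR-21-3p) to 0.997. The fold change of miR-21-5p turned to -0.012 without heat resistant libraries 1 and 2. It ranged from -0.053 to 0.133 with 1 library left out, the lowest without heat stressed library 6. With the covariate of miR-451 over miR-23a it was 0.232. The fold change of miR-155 ranged from -0.15 to 0.136 with 1 library left out, and was 0.307 with that covariate. It turned without heat stressed library 6 (-0.15), heat resistant library 2 (-0.01) and heat resistant library 4 (-0.04). With 1 library left out miR-146a ranged from 0.088 to 0.341, miR-146b from -0.713 to -0.343 and the L+2 row from -0.389 to -0.145. miR-146b was -0.41 with limma-voom and -0.41 with the replicate block, and miR-146b-3p was -0.0038 with limma-voom. That of miR-146b-3p turned to 0.040 with the replicate block and ranged from -0.913 to 0.265 with 1 library left out, the highest without heat resistant library 6. The log2 ratio of miR-21-5p to miR-21-3p ranged from 0.293 to 0.498 with 1 library left out, and passed at an unadjusted 0.05 without heat stressed library 4 or heat resistant library 3, while pairing the numbers gave an exact permutation p of 0.156. The cause of these changes was not tested. Whether library numbers pair the cows was not settled. Deviations of same-numbered libraries from their group means had correlations from -0.0527 to 0.277. Heat stressed libraries 3, 4 and 6 correlated best with the heat resistant library of their own number, and libraries 1, 2 and 5 with another. Counts set the precision of the minor rows, at 0 to 206 counts for miR-146b-3p.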

Other observations

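The opossum-named L+2 row of miR-21-5p, whose sequence was not used here, was set against the main miR-21-5p row. As a percent of the main row it was 0.0466, 0.0558, 0.0454, 0.0491, 0.0486 and 0.0578 in heat stressed libraries 1 to 6. It was 0.0620, 0.0599, 0.0572, 0.0781, 0.0650 and 0.0563 in heat resistant libraries 1 to 6. None of the 6 heat stressed libraries reached the heat resistant median of 0.0610, and the groups overlapped between heat stressed library 6 and heat resistant libraries 3 and 6. The difference in mean log2 ratio was -0.32 ± 0.09 (SE; exact permutation p = 0.00649, and 0.0325 adjusted over 5 ratios with the 4 planned ones). This ratio was picked after its values were seen, so its p is no separate evidence. With 1 library left out the exact permutation p ran from 0.00433 to 0.0130, and with same-numbered libraries paired it was 0.0625. The row had 260 to 581 counts per library.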
